A study of Mus musculus with 4 samples.

Results

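Matrix fibroblasts marked by Cilp, Postn, Ltbp2, Dio2 and Col8a1 were examined in single-cell RNA sequencing data from mouse hearts. They numbered 967 of 6440 gated fibroblasts, which in turn were part of 21581 kept cells. A kept barcode had at least 1000 UMIs (unique molecular identifiers, each standing for 1 captured RNA molecule) and at most 20% mitochondrial UMIs. A fibroblast held at least 10 UMIs of Col1a1, Col1a2, Dcn and Pdgfra together. It also held at most 1 UMI of the endothelial genes Pecam1 and Cdh5, at most 3 of the macrophage genes C1qa, C1qb and C1qc, and at most 2 of the pericyte genes Kcnj8 and Vtn. Within each library, the 15% of fibroblasts with the highest share of their UMIs from the 5 marker genes were taken as members. The rule therefore sets the share of members, which is not a result, and the other 5473 fibroblasts were the population they were set against.

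The libraries came from hearts of mice killed at 6 weeks of age. Their dams were fed, in pregnancy and lactation, a diet rich in resistant starch (high_fibre, 2 libraries) or one poor in it (labelled control, here control_diet, 2 libraries), and after weaning at 3 weeks every pup ate the same chow. The hearts were dissociated by perfusing collagenase IV (2 mg/mL) with dispase II (1 mg/mL), and the cells were sorted for live, nucleated, metabolically active ones and captured with 10x Genomics 3′ v2 chemistry, per the labels. The labels give neither strain nor sex nor the number of animals behind a library, so the p-values cover the variation among 4 libraries, part of which may be technical.

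Fibroblasts build and remodel the collagen scaffold of the heart. In mice, fibroblasts that make periostin and cartilage intermediate layer protein are known to expand when the ventricle is injured or loaded by pressure, and periostin is also made in the valves of the healthy heart. TGF-beta is the best-known inducer of this matrix programme. Postn encodes periostin, a matrix protein that binds collagen and integrins, and Cilp encodes a matrix protein known to restrain TGF-beta signalling. Ltbp2 encodes a protein of elastic microfibrils, Col8a1 a chain of the network-forming type VIII collagen, and Dio2 the deiodinase that converts the thyroid prohormone to its active form inside the cell.

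Members numbered 267 and 332 in the high_fibre libraries and 281 and 87 in the control_diet libraries. The median member held 14681, 14182, 16357 and 19670 UMIs in high_fibre 1, high_fibre 2, control_diet 1 and control_diet 2, against 11761, 12470, 12892 and 15688 UMIs in other fibroblasts, an order of libraries kept below. Members were thus the deeper cells in every library. The 4 gate genes made up 1.94% to 2.17% of the UMIs of members and 2.14% to 2.38% of those of other fibroblasts. A barcode sequence found in more than 1 library was carried by 259 kept cells and 29 members, 11 of them among the 87 members of control_diet 2. Endothelial markers summed to 123 to 168 CPM in members, against 160 to 190 CPM in other fibroblasts, CPM being UMIs per 1000000 UMIs of the summed cells of a library. Macrophage markers summed to 65.8 to 167 CPM against 74.1 to 191 CPM. Mesothelial markers were nearly absent from members, at 1.18 to 5.87 CPM over 10 genes with Msln at 0, against 26.7 to 159 CPM. Smooth muscle markers ran higher in members of every library, at 139 to 302 CPM against 52 to 119 CPM. Schwann cell markers ran higher in members of 3 libraries, at 84.6 to 194 CPM over all 4 against 63 to 87 CPM, and not in control_diet 2, whose members were the lowest.

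The 5 marker genes chose the members, so their values are a description. Postn (chr3:54361109-54391037, plus strand, GRCm38) stood at 1518, 833, 1447 and 1269 CPM in members, against 67.5, 42.5, 98.6 and 65.6 CPM in other fibroblasts, and its lowest member level was that of high_fibre 2. Cilp (chr9:65265180-65280605, plus strand) stood at 625, 529, 419 and 570 CPM in members, against 19.6, 17.5, 19.8 and 20.3 CPM. Col8a1 (chr16:57624258-57754737, minus strand) had the smallest ratio, with 1395, 1192, 1267 and 1351 CPM in members against 282, 259, 295 and 275 CPM. Ltbp2 (chr12:84783212-84876532, minus strand) averaged 123 ± 14.4 CPM in members and 7.08 ± 1.22 CPM in other fibroblasts (SD, n = 4 libraries). Dio2 (chr12:90724552-90738438, minus strand) averaged 71.9 ± 16.1 against 2.71 ± 0.88 CPM. The populations did not overlap for any of the 5. At the edge there was no gap, since the last member of a library had 11.6 to 14.5 marker UMIs per 10000 and the next fibroblast 11.6 to 14.4.

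**Figure D1:**
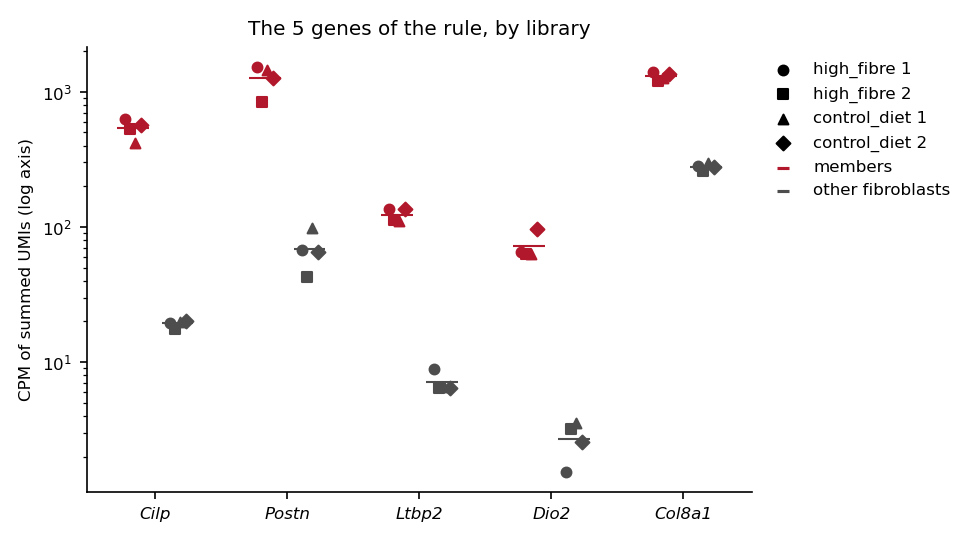
Level of each of the 5 marker genes (CPM, log axis) in members (red, left) and other fibroblasts (grey, right), with 1 point per library and a line at the mean. Col8a1 lies closest between the populations, averaging 1301 CPM in members and 278 CPM in other fibroblasts.

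The ratio of members to other fibroblasts was 27.8 for Cilp, 18.5 for Postn, 17.4 for Ltbp2, 26.5 for Dio2 and 4.69 for Col8a1, values that choosing and reading cells by the same UMIs can inflate. When the UMIs of each cell were divided at random into a choosing set and a reading set, the ratio of members to other fibroblasts in the reading set was 23.2 for Cilp, 16.1 for Postn, 16 for Ltbp2, 28 for Dio2 and 4.34 for Col8a1. When each gene was read in cells chosen by the other 4, the ratios were 14.3, 6.62, 16.1, 20.1 and 3.05 in that order. Each marker was therefore higher in the cells that the other 4 picked out. Detection was uneven among members. A Col8a1 UMI was seen in 90.2% of members, Postn in 78.7%, Cilp in 61.3%, Ltbp2 in 41.5% and Dio2 in 22.2%, against 74.9%, 22.6%, 11.1%, 5.74% and 2.05% of other fibroblasts. Free RNA can give such UMIs, and macrophages, with a median of 9918 to 13524.5 UMIs per library, held Col8a1 in 3.76%, Postn in 2.88%, Cilp in 1.11%, Ltbp2 in 0.541% and Dio2 in 0.331% of cells. In endothelial cells, with a median of 4997 to 6435 UMIs, the shares were 10.7%, 3.99%, 1.01%, 0.824% and 0.412% in that order, so every marker was detected more often in other fibroblasts than in either of these cell types.

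Promoter windows running from 250 bases before to 50 after the annotated start (RefSeq, GRCm38.p6) were searched on both strands for GGAATG (the TEAD core), TGANTCA (AP-1), GTCTAGAC (the SMAD palindrome), CAGACA (a SMAD-like element) and TATAAA (the TATA box). They are shown for the markers that held a match, and for Thbs4, which had the largest rise of the named genes outside the rule. Capitals mark the matches.
Dio2, chr12:90738989-90739288, minus strand: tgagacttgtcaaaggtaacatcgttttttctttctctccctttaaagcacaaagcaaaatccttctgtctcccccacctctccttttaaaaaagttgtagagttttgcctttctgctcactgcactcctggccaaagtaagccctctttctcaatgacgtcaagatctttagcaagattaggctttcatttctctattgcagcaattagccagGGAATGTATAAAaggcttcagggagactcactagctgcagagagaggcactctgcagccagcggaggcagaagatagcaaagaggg
Postn, second annotated start, chr3:54360857-54361156, plus strand: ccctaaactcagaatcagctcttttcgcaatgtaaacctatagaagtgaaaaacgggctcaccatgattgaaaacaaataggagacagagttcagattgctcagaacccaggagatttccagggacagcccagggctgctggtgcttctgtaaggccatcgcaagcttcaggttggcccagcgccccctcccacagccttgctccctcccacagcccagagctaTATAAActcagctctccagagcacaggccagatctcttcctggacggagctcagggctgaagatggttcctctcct
Col8a1, chr16:57754688-57754987, minus strand: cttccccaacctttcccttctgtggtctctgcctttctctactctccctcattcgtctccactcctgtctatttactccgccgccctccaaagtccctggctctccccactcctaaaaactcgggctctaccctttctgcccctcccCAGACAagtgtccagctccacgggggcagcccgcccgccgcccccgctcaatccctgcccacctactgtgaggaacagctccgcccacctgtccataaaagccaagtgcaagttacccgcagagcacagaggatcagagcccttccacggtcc
Thbs4, chr13:92794769-92795068, minus strand: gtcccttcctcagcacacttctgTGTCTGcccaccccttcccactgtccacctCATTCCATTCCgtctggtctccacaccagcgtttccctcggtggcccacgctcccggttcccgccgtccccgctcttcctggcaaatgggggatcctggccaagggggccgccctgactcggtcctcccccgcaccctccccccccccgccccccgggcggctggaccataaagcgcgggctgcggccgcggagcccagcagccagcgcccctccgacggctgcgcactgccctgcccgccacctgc
Dio2 held a TEAD core adjoining a TATA box, Postn a TATA box and Col8a1 the SMAD-like element, while Thbs4 held 2 overlapping TEAD cores and the SMAD-like element. The windows of Cilp, Ltbp2 and the first Postn start held none of the 5 motifs. Among all 32851 promoter windows, 14.7% held the TEAD core, 7.81% AP-1, 0.213% the palindrome, 21% the SMAD-like element and 13.6% the TATA box. A match describes letters in a window and is not evidence of binding.

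With the 5 marker genes left out, members differed from other fibroblasts in many other genes. The edgeR quasi-likelihood test on UMIs summed per library, with the library as a term, called 1233 of 11716 genes higher in members (10.5%) and 1027 lower (8.77%), 19.3% in all, at an adjusted p under 0.05. The member sum was above the other in 4 of 4 libraries for 17.3% of genes and below it in 4 of 4 for 18.6%. The median log2 change over all genes was -0.0099. In sums, fewer cells that express a gene and less of its RNA per cell cannot be told apart.

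Thbs4 (thrombospondin 4, a matricellular protein of tendon and heart) had the largest rise among the named genes. It stood at 61.5, 81.4, 48.3 and 107 CPM in members, against 0.114, 0.429, 0.426 and 0.387 CPM in other fibroblasts (log2 change 7.61, SE 0.16, edgeR adjusted p = 5.3e-21). Every member sum lay far above every other sum, and the RNA came from few cells. Its 1023 UMIs lay in 84 members, against 24 UMIs in 15 other fibroblasts, so it passed the filter on low counts only through the members. In control_diet 2, the library with the highest level, 1 member held 176 of the 184 UMIs. A UMI was seen in 8.69% of members and 0.274% of other fibroblasts, and in 0.199% of endothelial cells and 0.12% of macrophages.

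Meox1, a homeobox transcription factor known from activated fibroblasts, was broad by contrast. It stood at 487, 417, 545 and 442 CPM in members, against 95, 101, 137 and 119 CPM in other fibroblasts (log2 change 2.08, SE 0.069, edgeR adjusted p = 8.3e-09), with no overlap. A Meox1 UMI was seen in 81.7% of members and 41.8% of other fibroblasts, and in 36.2% of endothelial cells but 2.52% of macrophages. Ctgf, the connective tissue growth factor induced by TGF-beta and by YAP, stood at 1380, 1178, 1074 and 1092 CPM in members, against 341, 302, 293 and 401 CPM (log2 change 1.83, SE 0.12, edgeR adjusted p = 0.0027), again without overlap.

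Secreted signals and regulators were among the other large rises. Dkk3, a secreted glycoprotein of the Dickkopf family, averaged 160 ± 61.6 CPM in members and 41.6 ± 11.2 CPM in other fibroblasts (log2 change 1.92; SD, n = 4 libraries each). Pdgfa, a platelet-derived growth factor ligand, averaged 38.1 ± 5.96 CPM in members and 11.6 ± 1.63 CPM in other fibroblasts (log2 change 1.76). Neither gene overlapped between the populations. On the log2 scale Cst6, a cysteine protease inhibitor, rose by 2.53, the receptor phosphatase Ptprb by 2.21, the ubiquitin hydrolase Uchl1 by 2.11, the small GTPase Rasl11b by 1.83 and the LIM-domain cofactor Fhl2 by 1.67, each in 4 of 4 libraries.

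Several large rises differed widely between libraries. Prg4, the lubricating proteoglycan, stood at 556, 221, 57.2 and 257 CPM in members, against 40.02, 25.9, 8.76 and 16.4 CPM in other fibroblasts (log2 change 3.42, SE 0.26, edgeR adjusted p = 0.0061). A Prg4 UMI was seen in 25% of members, 7.66% of other fibroblasts and also in 20.03% of endothelial cells. Comp, cartilage oligomeric matrix protein, stood at 93.3, 96.4, 32 and 59.3 CPM in members, against 17.8, 8.8, 5.35 and 11 CPM (log2 change 2.77, SE 0.25, edgeR adjusted p = 0.0058); without control_diet 1 the call was lost, at 2.81 with an adjusted p of 0.063. Both genes were higher in members of every library, but single cells weighed heavily. For Comp, 1 member held 90 of 147 UMIs in control_diet 1 and another 42 of 102 in control_diet 2. For Prg4, 1 member held 223 of 442 UMIs in control_diet 2.

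Wif1, a secreted Wnt inhibitor, stood at 167, 72.7, 96.2 and 6.4 CPM in members, against 33.5, 12.7, 9.85 and 4.77 CPM in other fibroblasts (log2 change 2.58, SE 0.32, edgeR adjusted p = 0.021). Control_diet 2 hardly differed, and in control_diet 1 a single member held 330 of 442 Wif1 UMIs. Without high_fibre 1 the log2 change was 2.74 and edgeR's adjusted p 0.11, and without high_fibre 2 they were 2.61 and 0.099. Timp1, an inhibitor of matrix metalloproteinases, stood at 193, 72.5, 153 and 120 CPM in members, against 36, 32.1, 42.6 and 31.1 CPM (log2 change 1.86, SE 0.26, edgeR adjusted p = 0.027). Its call was lost without control_diet 1, at 1.86 and an edgeR adjusted p of 0.14, and without control_diet 2, at 1.85 and 0.11.

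Igfbp3, a carrier of insulin-like growth factors, had the largest fall among called genes with a mean of at least 20 CPM that are not markers of another cell type. It stood at 11.7, 7.38, 7.62 and 2.33 CPM in members, against 94.9, 74.1, 55.2 and 64.4 CPM in other fibroblasts (log2 change -3.19, SE 0.13, edgeR adjusted p = 1.3e-10), and the populations were far apart. Cxcl14, a chemokine, averaged 119 ± 62.1 CPM in members and 482 ± 142 CPM in other fibroblasts (log2 change -2.1, SE 0.28). Penk, the enkephalin precursor, fell by 1.8, Nmb, the neuromedin B precursor, by 1.74, the gamma-glutamyltransferase Ggt5 by 1.6, the carboxylesterase Ces1d by 1.5, the dipeptidase Dpep1 by 1.5, the interferon-inducible Ifi207 by 1.43 and the GDNF receptor Gfra1 by 1.42, each in 4 of 4 libraries. The Cxcl14 call was lost without high_fibre 1 (-1.93), control_diet 1 (-1.95) or control_diet 2 (-2.15), and that of Dpep1 without high_fibre 1 (-1.5) or control_diet 2 (-1.45).

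C3, the central complement component, stood at 182, 172, 55.1 and 69.8 CPM in members, against 549, 527, 336 and 368 CPM in other fibroblasts (log2 change -1.95, SE 0.25, edgeR adjusted p = 0.022). Members were lower in every library, the control_diet members most of all. Without high_fibre 1, high_fibre 2, control_diet 1 or control_diet 2 the C3 change was -2.12, -2.1, -1.77 or -1.87, with edgeR adjusted p-values of 0.088, 0.08, 0.054 and 0.09, so the call was lost each time.

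**Figure D2:**
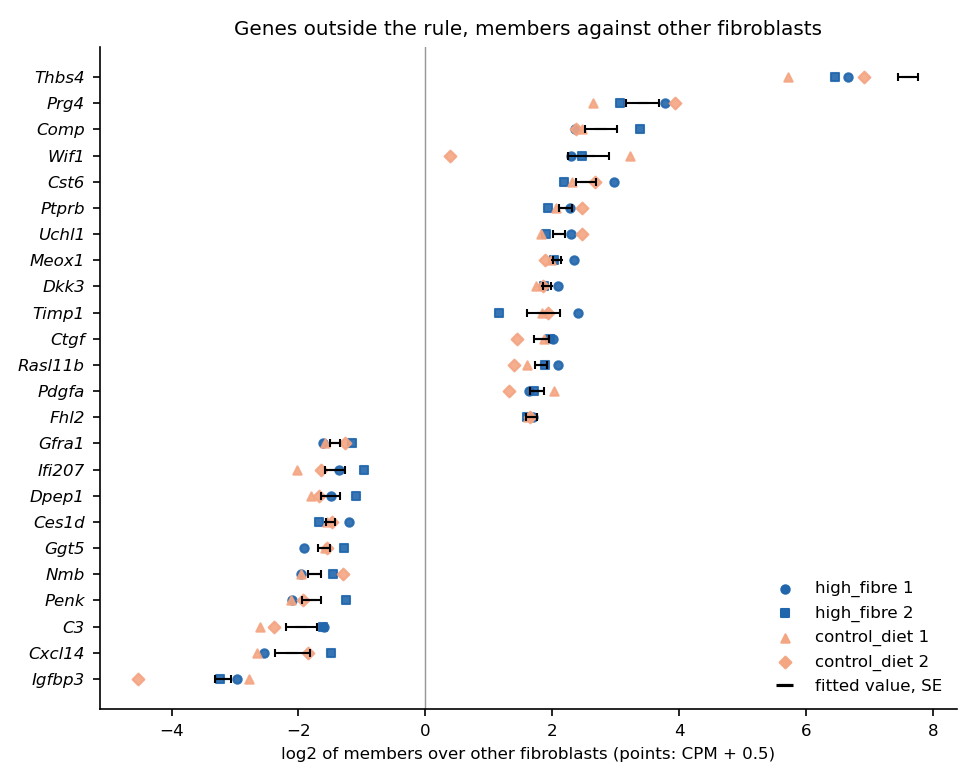
Log2 ratio of members over other fibroblasts for 14 of the 15 largest rises and the 10 largest falls outside the rule. Coloured points are the ratio of CPM + 0.5 in each library and black bars the edgeR estimate plus and minus its SE. Thbs4 (7.61) and Igfbp3 (-3.19) mark the ends.

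Most collagens were modestly higher in members. Beside the counts of the lists from here on, 10.5% of all genes tested were called higher and 8.77% lower. Of 17 fibrillar and network collagens 12 rose and 2 fell, with a median log2 change of 0.35. Col12a1, a fibril-associated collagen, stood at 44.7, 18.5, 18.5 and 19.2 CPM in members, against 5.11, 4.33, 4.73 and 5.29 CPM in other fibroblasts (log2 change 2.35, SE 0.21). Col8a2, the partner chain of Col8a1, averaged 11.8 ± 2.22 against 3.02 ± 0.331 CPM (2.01), without overlap. The main fibrillar chains moved less, with Col3a1 up by 0.46, Col1a2 by 0.38 and Col1a1 by 0.35, the last pair being gate genes as well. Col5a3 fell by 0.72 and Col6a3 by 0.27. Among 23 genes that process or crosslink collagen, 9 rose, such as the lysyl hydroxylase Plod2 (0.55), and 4 fell, such as the prolyl hydroxylase P4ha2 (-0.63); leaving out 1 library gave 2 to 4 that fell, the low value without high_fibre 1.

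Microfibril genes rose more often than they fell, with 8 higher and 3 lower of 16. Mfap4, a microfibril-associated glycoprotein, stood at 1115, 1314, 1210 and 1138 CPM in members, against 313, 367, 423 and 481 CPM in other fibroblasts (log2 change 1.61, SE 0.14, edgeR adjusted p = 0.0073). The populations did not overlap, although without control_diet 1 the adjusted p was 0.058 at 1.64. Mfap5 rose by 0.85, fibulin 2 (Fbln2) by 0.51 and the latent TGF-beta binding proteins Ltbp3 and Ltbp4 by 0.51 and 0.36, while Efemp1 (fibulin 3) fell by 1.32 and Fbln1 by 0.43. Without high_fibre 1 only 4 of the genes were called higher, and the calls of Mfap5 (0.84) and of fibrillin 1, Fbn1 (0.40, against 0.42 with all libraries), were among those lost.

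Matricellular proteins, which tune how cells attach to the matrix, had 9 genes higher and 5 lower of 18, with a median log2 change of 0.53. Tnc, tenascin C, was called higher, on 193 UMIs in 53 members, 67 of them in 1 cell, against 110 UMIs in 75 other fibroblasts. In other fibroblasts Tnc lay near the filter on low counts, so its call says little. Sparc, an abundant collagen-binding glycoprotein, averaged 6955 ± 1016 CPM in members and 4471 ± 692 CPM in other fibroblasts (0.64), without overlap. Wisp1, a CCN family protein, rose by 4.26 on 48 UMIs in 31 members, against 11 UMIs in 10 other fibroblasts. It passed the filter on low counts only through the members, so a rise was the only outcome open to it. Thbs2 fell by 0.90 and Smoc2 by 0.62. Of 20 proteoglycans 9 rose, among them versican (Vcan, 1.01), asporin (Aspn, 1.05), biglycan (Bgn, 0.73) and the cell-surface Gpc1 (1.97), and 4 fell, among them Gpc3 (-1.09) and Ogn (-0.51).

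Proteases and their inhibitors fell more often, with 4 higher and 9 lower of 22. Besides Timp1, Adamtsl2, a secreted ADAMTS-like glycoprotein, rose by 1.04. The versican-cleaving Adamts5 fell by 0.72 and the serine proteases Htra1 and Htra3 by 0.83 and 0.61. Without control_diet 1, 2 were called higher, and Adamtsl2 (1.03) was no longer called.

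TGF-beta family genes included ligands, feedback inhibitors and antagonists. Of 30 tested 13 rose and 4 fell, with a median log2 change of 0.082. The ligand Tgfb1 stood at 103, 79.9, 103 and 116 CPM in members, against 37.2, 36, 42.7 and 38.3 CPM in other fibroblasts (log2 change 1.35, SE 0.067, edgeR adjusted p = 3.3e-13), without overlap. Tgfb3 rose by 0.94 and the activin subunit Inhba by 0.67. Genes known to be induced by TGF-beta and to dampen its signal were higher as well: Pmepa1 averaged 1096 ± 54.3 against 573 ± 71.2 CPM (0.94), Tgif1 rose by 1.08, Skil by 0.69 and Smad7 by 0.36. Of the activin-binding proteins, Fstl3 rose by 1.05 but follistatin (Fst) fell by 1.38, and the signal-carrying Smad3 fell by 0.43.

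Markers of activated fibroblasts had 10 of 20 genes higher and 0 lower, with a median log2 change of 0.73; 1 was called lower without control_diet 1, and 1 without control_diet 2. Actn1, an actin crosslinker, averaged 68.3 ± 7.67 CPM in members and 22.7 ± 4.72 CPM in other fibroblasts (1.63), without overlap. Ddah1, which breaks down methylated arginines, rose by 4.21 on 251 UMIs in 112 members, against 63 UMIs in 47 other fibroblasts. Like Wisp1, it passed the filter only through the members. The transcription factor Runx1 rose by 1.83 and cadherin 11 (Cdh11) by 1.02. The tropomyosin Tpm1, an actin-binding protein, rose by 0.43. Acta2 and Tagln were not called. Acta2, smooth muscle actin, stood at 96.8, 44.7, 80.1 and 45.4 CPM in members, against 15.8, 44.6, 38.2 and 28.8 CPM (log2 change 1.11, SE 0.55, edgeR adjusted p = 0.32). Tagln, transgelin, stood at 157, 98.8, 158 and 52.4 CPM, against 16.9, 36, 37.8 and 26.8 CPM (log2 change 2.03, SE 0.44, edgeR adjusted p = 0.074). The smooth muscle list, whose sums were higher in members of every library, holds both, while its smooth muscle myosin Myh11 ran from 0 to 4.97 CPM in members and from 0.168 to 11 CPM in other fibroblasts. The part of smooth muscle RNA in these values was not tested.

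Of 21 valve, tendon and cartilage genes only 10 passed the filter on low counts, of which 7 rose and 0 fell. Genes that pass only where members are high have to differ, so this count says little. Thbs4, Comp, Prg4 and Wif1, given above, belong to it. Scx, the tendon transcription factor scleraxis, rose by 3.46 on 171 UMIs in 40 members, against 73 UMIs in 32 other fibroblasts. Fmod, the collagen-binding fibromodulin, stood at 73.2, 44.7, 6.75 and 9.31 CPM in members, against 6.76, 13.7, 5.35 and 9.29 CPM (log2 change 1.87, SE 0.70, edgeR adjusted p = 0.21, not called), and in both control_diet libraries it was near the level of other fibroblasts.

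Wnt, thyroid hormone and growth factor genes were divided. Of 16 Wnt genes 6 rose and 4 fell: the ligand Wnt2 rose by 2.69, while the agonist Rspo1 fell by 2.06, the ligand Wnt11 by 1.08 and the antagonist Sfrp1 by 0.49. Wnt2 was seen in only 37 members and 28 other fibroblasts, near the filter on low counts, so its rise says little. Beside Dio2, 11 genes of thyroid hormone handling were tested, of which 2 rose and 3 fell. With 10.5% of all genes called higher and 8.77% lower, these are too few calls to be a result about the list. The hormone-responsive factor Klf9 fell by 0.76 and the receptor Thra by 0.28. Without control_diet 2, 1 was called higher. Growth factors and receptors had 7 of 28 higher and 9 lower, with the neurotrophin Bdnf (2.38) and the cytokine Il11 (1.78) up. Il11 rested on 64 UMIs in 50 members, against 87 UMIs in 79 other fibroblasts, and passed the filter only through the members. In the insulin-like growth factor list 3 of 10 rose, Igf1 by 0.60, and 4 fell, Igfbp4 by 0.38. YAP targets had 5 of 14 higher and 4 lower, and 3 to 4 higher when 1 library was left out, 3 each without high_fibre 1, control_diet 1 or control_diet 2.

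Genes of other fibroblast states were mostly lower, except that adventitial-like markers were divided. These lists were chosen with earlier results of these data known, so their counts are a description and lend no support. In the Gsta3, Hsd11b1 and Smoc2 list 0 of 13 rose and 11 fell, with a median log2 change of -0.75. Lpl, lipoprotein lipase, stood at 440, 372, 428 and 389 CPM in members, against 1127, 743, 931 and 885 CPM in other fibroblasts (log2 change -1.16, SE 0.048, edgeR adjusted p = 8.2e-12), without overlap. The lipolysis inhibitor G0s2 fell by 1.29, Gpx3, a secreted glutathione peroxidase, by 0.75, and Gsta3, a glutathione transferase, by 1.06, the last not called without control_diet 2 (-1.05). In the Inmt, Igfbp3 and Sfrp2 list 0 of 9 rose and 5 fell. Adventitial-like markers had 3 of 14 higher and 4 lower, with a median log2 change of -0.033, 6 above 0 and 8 below. Clec3b fell by 1.03 and the peptidase Dpp4 by 0.94. Pi16 was detected in 91.7% of members and 86.4% of other fibroblasts, and Cd248 in 55.5% and 50.4%, with members the deeper cells. Without high_fibre 1 the count of adventitial-like markers higher was 1, and without control_diet 2 the count lower was 8.

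Along the marker score, genes changed by degrees or only at the top. Fibroblasts of each library were ranked by score into 10 equal bins, and the values below are means of the 4 libraries, given as a description. Meox1 stood at 27.9 CPM in bin 1, 115 in bin 5, 316 in bin 9 and 522 CPM in bin 10. Ctgf stood at 143, 316, 818 and 1316 CPM in the same bins. Meox1 climbed with every bin and Ctgf from bin 2 on, whereas Thbs4 stood at 0.397 CPM in bin 8, 1.2 in bin 9 and 106 CPM in bin 10. C3 declined, at 870 CPM in bin 1, 351 in bin 5, 187 in bin 9 and 86.2 CPM in bin 10. Depth moved with the score, the mean of the libraries' median UMIs being 9662 in bin 1, between 13050 and 14770 in bins 2 to 9 and 16820 in bin 10, and its part in these levels was not tested. Among fibroblasts of equal score the deeper were ranked higher, and bins 1 and 2 both had a median score of 0 in the high_fibre libraries. The low depth of bin 1 was thus in part set by this ranking.

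**Figure D3:**
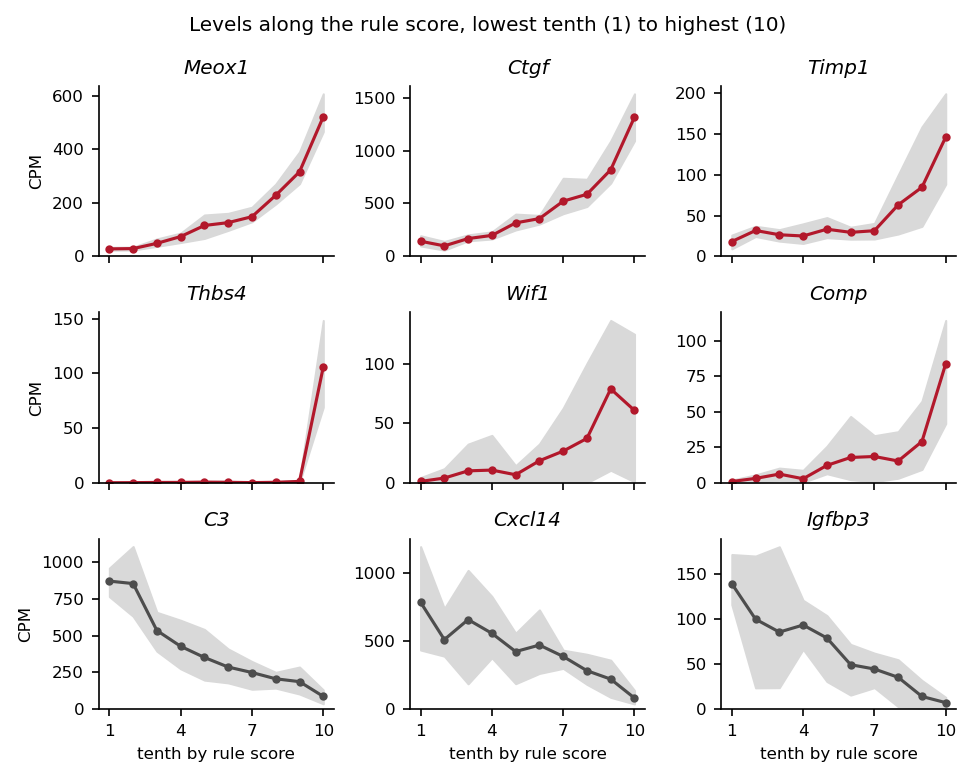
Level (CPM) of 9 genes in 10 bins of fibroblasts ranked by marker score within each library, bin 10 the highest. Lines are means of 4 libraries and bands run from the lowest to the highest library. Meox1 climbs with every bin and Ctgf from bin 2, Thbs4 is near 0 until bin 10 (106 CPM), and C3 declines.

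Members differed among themselves by which marker led. Col8a1 had the most UMIs of the 5 in 513 members, Postn in 336 and Cilp in 92, with 22 tied and 2 each led by Ltbp2 and Dio2. The Postn-led share ran from 25.3% to 43.4% across libraries. The split rests on the markers, so what follows is a description of library means. Those of Cilp-led members leave out control_diet 2, which had only 9 such cells. Wif1 was at 0 CPM in Col8a1-led members of all 4 libraries, and averaged 194 CPM in Postn-led and 225 CPM in Cilp-led members. Comp averaged 272, 62.9 and 28.2 CPM in Cilp-led, Postn-led and Col8a1-led members, Fmod 198, 44.4 and 6.28 CPM and Scx 36.9, 16.7 and 0.383 CPM in that order. Thbs4 averaged 226, 88 and 14.1 CPM and Chad, a cartilage matrix protein, 70.00, 0 and 0.128 CPM. The means of Comp, Fmod, Scx, Thbs4 and Chad were thus highest where Cilp led. For Wif1 the Postn-led mean also takes in control_diet 2, at 20.4 CPM, so its means cover unlike libraries and are not ranked. In high_fibre 1, Wif1 stood at 642 CPM where Cilp led and 256 CPM where Postn led. Single libraries differed. In control_diet 1, Cilp-led and Postn-led members stood at 0 and 212 CPM for Wif1 and 3.75 and 57.2 CPM for Comp. There Fmod stood at 3.75 and 11.5 CPM and Scx at 0 and 19.7 CPM, while Thbs4 was higher where Cilp led. In high_fibre 2, Wif1 stood at 32.45 and 286 CPM and Thbs4 at 162 and 214 CPM, while Comp, Fmod, Scx and Chad were higher where Cilp led. The Cilp-led cells were few and varied, Chad running from 0 to 205 CPM across libraries.

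Postn-led members had other genes high. Pdgfa averaged 86.8, 52.5 and 9.3 CPM in Postn-led, Cilp-led and Col8a1-led members, the last close to the 11.6 CPM of other fibroblasts. Dkk3 averaged 290, 220 and 63.6 CPM, Uchl1 93.1, 41.6 and 38.9 CPM and the cell-cycle inhibitor Cdkn1a 431, 222 and 161 CPM in the same order. Meox1 was level across the split, at 469, 474 and 460 CPM. With members chosen without Postn, Wif1 turned to -0.69, Pdgfa to -0.18 and the Schwann gene S100b to -1.47, against 2.58, 1.76 and 2.48 with all 5 markers. Schwann markers moved with this group, and their part in these values was not tested. At least 3 Schwann UMIs were held by 54 members (5.58%) and 52 other fibroblasts (0.95%). With cells that held 3 or more Schwann or mesothelial UMIs left out, edgeR called 2244 genes, 2013 of them among the 2260.

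**Figure D4:**
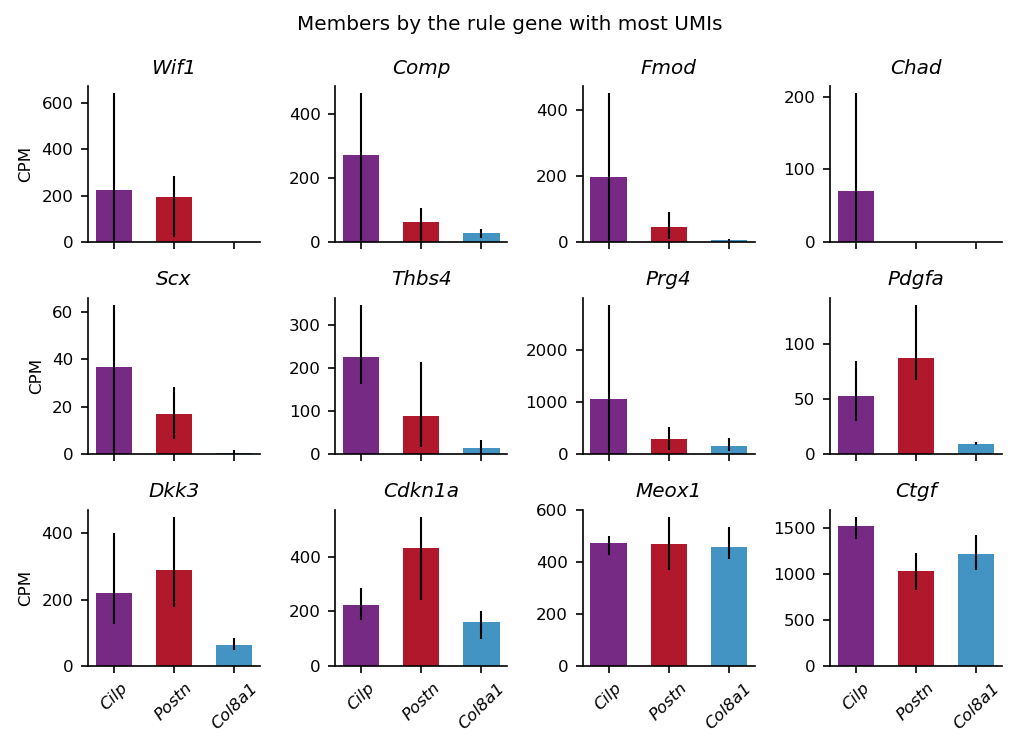
Mean level (CPM, bars) of 12 genes in members whose leading marker was Cilp, Postn or Col8a1. Lines run from the lowest to the highest of 4 libraries, with control_diet 2 (9 cells) left out where Cilp led. Wif1 is at 0 CPM where Col8a1 led, and Meox1 is level at 469, 474 and 460 CPM where Postn, Cilp or Col8a1 led.

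Between the maternal diets, the marker genes were read in all gated fibroblasts, which are not chosen by them. There edgeR called 1 of 13703 genes (0.0073%) the chaperone gene Sdf2l1, and none of the 5 markers, and the diets did not overlap for 35.3% of genes. Postn stood at 332 and 172 CPM in high_fibre and 340 and 283 CPM in control_diet fibroblasts (log2 change -0.31, SE 0.41, edgeR adjusted p = 0.97). Without high_fibre 1 its change was -0.85 (edgeR adjusted p = 0.043), and without high_fibre 2 it was 0.090. Cilp stood at 130 and 102 CPM in high_fibre fibroblasts and 91.2 and 120 CPM in control_diet fibroblasts (log2 change 0.14). Dio2 stood at 13.1 and 13 CPM in high_fibre fibroblasts and 14.2 and 19.5 CPM in control_diet fibroblasts (-0.33). The log2 differences of Ltbp2 and Col8a1, also not called, were 0.031 and -0.065. With 1 score cutoff common to all libraries, 15.6% (14% to 17.4%) and 12.9% (11.5% to 14.4%) of high_fibre fibroblasts and 16.8% (15.1% to 18.5%) and 15.4% (12.5% to 18.6%) of control_diet fibroblasts were over it, with exact 95% binomial intervals that cover counting error only. The diets overlapped in this share.

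Within members, edgeR called 11 of 11412 genes higher in high_fibre (0.0964%) and 8 lower (0.0701%), 0.166% in all, with 789 at an unadjusted p under 0.05. The diets did not overlap for 36.9% of genes, so lack of overlap alone is no result. The count depended on single libraries. It was 75 without high_fibre 1, 234 without high_fibre 2, 1 without control_diet 1 and 5 without control_diet 2, and 18, 19, 0 and 1 of the 19 genes were among those calls. Sex makeup differed between libraries too: of members with Y-linked or Xist RNA, 72.8% and 43.9% in high_fibre and 22.7% and 48.1% in control_diet carried Y-linked RNA alone. Neither Xist (log2 change -0.62) nor the Y-linked Ddx3y (1.04) was called, and the part of sex in the calls was not tested.

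C3 had the smallest p among members. It stood at 182 and 172 CPM in high_fibre and 54.9 and 69.6 CPM in control_diet members (log2 change 1.53, SE 0.13, edgeR adjusted p = 7.9e-05), so the diets lay well apart. In other fibroblasts it stood at 549 and 526 CPM in high_fibre and 336 and 366 CPM in control_diet (log2 change 0.62, edgeR adjusted p = 0.19, not called). Without control_diet 1 the change in members was 1.34 and edgeR's adjusted p 0.088. Macrophage markers moved with the diet, summing to 95.9 to 167 CPM in high_fibre and 65.8 to 67.9 CPM in control_diet members, and their part in the C3 difference was not tested. Gated macrophages held 13.4 to 36.2 CPM of C3.

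The other genes higher in high_fibre members included a peptide hormone and a prostaglandin receptor. Adm, the vasodilator peptide adrenomedullin, stood at 80.5 and 85 CPM in high_fibre and 35.4 and 40.6 CPM in control_diet members (log2 change 1.15, SE 0.14, edgeR adjusted p = 0.0038). Arhgap24, a Rac-inactivating protein, stood at 32.2 and 34.9 CPM in high_fibre members and 12.6 and 11.6 CPM in control_diet members (log2 change 1.45). Neither gene overlapped between the diets. Ptgfr, the prostaglandin F receptor, stood at 23.9 and 22.1 CPM in high_fibre members and 8.25 and 6.38 CPM in control_diet members (log2 change 1.58). Rasl11b, one of the genes higher in members than in other fibroblasts, stood at 123 and 103 CPM in high_fibre members and 62.9 and 64.4 CPM in control_diet members (log2 change 0.83). In other fibroblasts the changes were 0.63 for Adm, 0.91 for Arhgap24, 0.52 for Ptgfr and 0.34 for Rasl11b, none of them called. Ifi207 (1.29) and the uncharacterised 6030408B16Rik (0.84) were called as well.

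Some of these calls rested on few cells. Fmod stood at 73.1 and 44.7 CPM in high_fibre and 6.73 and 9.28 CPM in control_diet members (log2 change 2.96, SE 0.32, edgeR adjusted p = 0.019), and without the highest cell of each library at 56.6 and 32.9 CPM in high_fibre and 3.73 and 6.53 CPM in control_diet. Rgs4, a regulator of G-protein signalling also found in smooth muscle, stood at 17.5 and 18 CPM in high_fibre members and 4.99 and 5.22 CPM in control_diet members (log2 change 1.8). The water channel Aqp1 stood at 16.8 and 16.5 CPM in high_fibre members and 4.99 and 4.64 CPM in control_diet members (log2 change 1.76). Neither overlapped between the diets, on 184 Rgs4 UMIs and 173 Aqp1 UMIs in all members. Mcpt4, a mast cell protease, was called at 5.11, a fitted value that is no bound because control_diet members held 1 and 0 UMIs. Mcpt4 passed the filter on low counts only through the high_fibre libraries, so a rise was the only outcome open to it. A single member held 22 of 25 UMIs in high_fibre 1, and another 30 of 31 in high_fibre 2. Without the highest cell of each library Mcpt4 stood at 0.748 and 0.218 CPM in high_fibre members and 0 and 0 CPM in control_diet members.

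Sdf2l1 and Creld2, chaperone genes of the endoplasmic reticulum, were lower in high_fibre members. Sdf2l1 stood at 33.5 and 30.8 CPM in high_fibre and 64.2 and 55.7 CPM in control_diet members (log2 change -0.92, SE 0.15, edgeR adjusted p = 0.019), and Creld2 at 40.9 and 43.6 CPM in high_fibre members and 76.8 and 76.5 CPM in control_diet members (log2 change -0.86, SE 0.13, edgeR adjusted p = 0.014). Manf, a related secreted protein, stood at 251 and 236 CPM in high_fibre members and 429 and 332 CPM in control_diet members (log2 change -0.65, SE 0.13, edgeR adjusted p = 0.07, not called). Sdf2l1 was also the 1 gene of 13370 called in other fibroblasts (0.00748%), at -1.02, where the log2 difference of Creld2 was -0.92 and that of Manf -0.75, and where the diets did not overlap for 33.9% of genes. The count in other fibroblasts was 8, 107, 5 and 15 without high_fibre 1, high_fibre 2, control_diet 1 and control_diet 2. Of the 18 listed chaperone genes, 16 had changes below 0 and 2 were called, with a median of -0.27 in members.

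Thy1, a surface glycoprotein of fibroblasts, stood at 38.3 and 29.9 CPM in high_fibre and 70.1 and 75.4 CPM in control_diet members (log2 change -1.09, SE 0.15, edgeR adjusted p = 0.011). Stmn4, which destabilises microtubules, stood at 18 and 20.4 CPM in high_fibre members and 38.2 and 47 CPM in control_diet members (log2 change -1.11). The tubulin Tubb2b stood at 48 and 58.3 CPM in high_fibre members and 99.8 and 85.8 CPM in control_diet members (log2 change -0.81). The matrix protein Spon2 fell by 0.77 and the mitochondrial calcium-binding Efhd1 by 0.81. In other fibroblasts Spon2 was also detected less often in high_fibre, in 44.2% and 50.3% of cells against 66.5% and 61.2% in control_diet. For Efhd1 the shares there were 27.8% and 33.5% against 42.5% and 37.6%. Such shares also follow depth. Hmgcs1, an early enzyme of cholesterol synthesis, stood at 57.9 and 74 CPM in high_fibre and 112 and 127 CPM in control_diet members (log2 change -0.84, SE 0.14, edgeR adjusted p = 0.019). It was the 1 call among 22 cholesterol synthesis genes, all 22 of which had changes below 0, with a median of -0.69 against 0.0046 over all genes. In other fibroblasts 19 of the 22 were below 0 and 3 above, with a median of -0.37 and 0 calls. Collagens had 0 calls of 17 and a median of -0.13, and matricellular genes 0 calls of 20 and a median of -0.035. In other fibroblasts collagens had 0 calls of 18 and a median of -0.20.

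**Figure D5:**
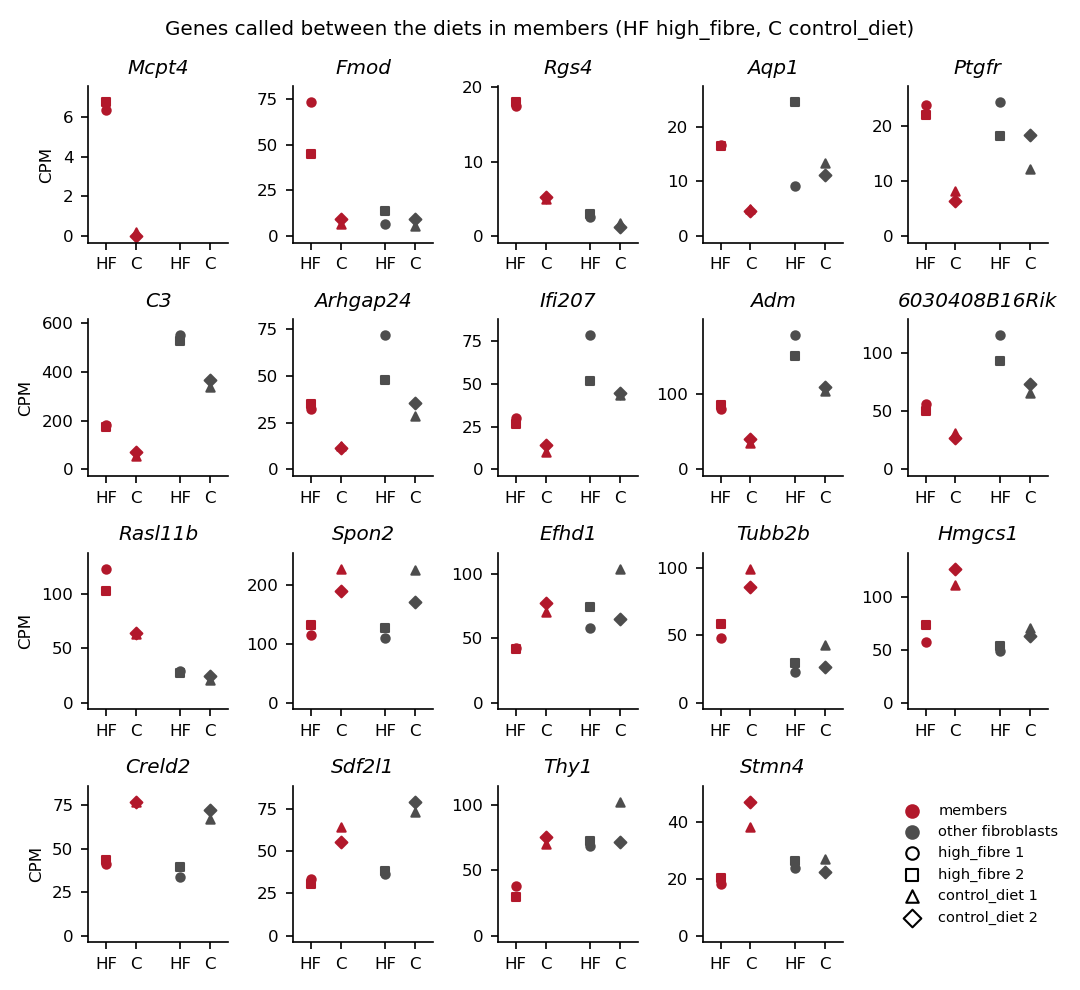
Level (CPM) in each library of the 19 genes called between diets in members, high_fibre left of control_diet, for members and then for other fibroblasts. C3 stands at 182 and 172 CPM in high_fibre members and 54.9 and 69.6 CPM in control_diet members, and is higher in other fibroblasts of both diets.

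Whether the diet effect differed between members and other fibroblasts was tested gene by gene. Of 12234 genes edgeR called 0.0899%, namely 8 with a more positive diet effect in members (0.0654%) and 3 with a more negative one (0.0245%). The count was 57, 44, 110 and 28 without high_fibre 1, high_fibre 2, control_diet 1 and control_diet 2. C3 was among them, with a difference of 0.93 (SE 0.11, edgeR adjusted p = 4.1e-06). Among matrix genes, elastin (Eln) stood at 504, 456, 445 and 382 CPM in members and 355, 304, 419 and 423 CPM in other fibroblasts, a difference of 0.56 between the diet effects (SE 0.088, edgeR adjusted p = 0.0014). Mfap4 differed by 0.46, a call lost without control_diet 2 (0.32), and Mgp, the calcification inhibitor matrix Gla protein, by 0.36, lost without high_fibre 2 (0.26) or control_diet 2 (0.32).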

How the data were processed

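Single-cell UMI counts per gene and barcode were taken as the authors deposited them, 1 matrix per library; Cell Ranger 3.1.0 and mm10 are named per the submitters' processing notes, and other steps before deposit are not given in the sources used here. The 4 matrices held 26765 barcodes, 31053 genes and 27577599 to 69600492 UMIs each. Gene positions came from GENCODE on GRCm38.

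Members and gene lists were chosen with earlier results of these data known. UMIs were summed per library and population and tested with edgeR 4.0.16 (quasi-likelihood, TMM scaling, genes kept by filterByExpr with a minimum count of 10, Benjamini-Hochberg adjustment over all genes tested) in R 4.3.3. Members against other fibroblasts had the library as a term and left out the 5 marker genes. Diets were compared over 2 libraries against 2, and the difference between diet effects as a member-by-diet term over 8 sums, with library and population as terms. CPM of tested genes carry the TMM factors, so they differ slightly between comparisons. Named genes were the 15 largest rises and 10 largest falls among called genes with a mean of at least 20 CPM, the same sign in 4 libraries and no listing as another cell type's marker, the called genes of the diet comparisons up to 10 in each direction (Rasl11b, past that number, is also a named rise), and examples from the lists. A few genes among these are not reported here.

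No doublet caller was run. The gate removes some doublets, and a stricter gate allowed no UMI of 12 genes of other cell types and left out the deepest cells. Alternatives were DESeq2 1.42.0, its size factors, limma-voom (limma 3.58.1), no filter, each library left out, other cutoffs and gates, members chosen without each marker, and the replicate block. Those on shared barcodes, gate share and Schwann or mesothelial markers were chosen after seeing the data. Tables and figures used Python 3.11.15, numpy 2.4.6, scipy 1.17.1, pandas 2.3.3 and matplotlib 3.10.9. The scripts were tested on simulated data.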

Additional observations from a re-analysis of the deposited data

Results flagged for a closer look

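For 11 genes, the test of the difference itself found a diet effect (high_fibre over control_diet, log2) in members unlike that in other fibroblasts, with edgeR adjusted p-values under 0.05. For C3 the difference was 0.93, from effects of 1.53 in members and 0.62 in other fibroblasts. Matrix genes were Eln (0.56, from 0.21 in members and -0.35 in other fibroblasts), Mfap4 (0.455, from 0.052 in members and -0.41 in other fibroblasts), Mgp (0.36, from 0.36 in members and -0.0049 in other fibroblasts) and Cthrc1, a secreted collagen triple helix protein (2.76, from 1.83 in members and -0.92 in other fibroblasts). A single member held 73 of 118 Cthrc1 UMIs in high_fibre 2, and the call was lost without high_fibre 2 (1.97) or control_diet 1 (2.48). The chemokine Ccl7 differed by -1.395, from -0.76 in members and 0.66 in other fibroblasts, and 1 member held 209 of its 226 UMIs in control_diet 2. The chemokine Cxcl10 differed by 1.94, from 1.54 in members and -0.17 in other fibroblasts, lost without high_fibre 1 (2.36) or control_diet 1 (0.54).

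Stress and cytoskeletal genes were the heat shock gene Hspa1a (-0.85, from 0.41 in members and 1.27 in other fibroblasts), the metallothionein Mt1 (0.54, from 0.85 in members and 0.31 in other fibroblasts; 0.39 and not called without control_diet 2) and Stmn4 (-1.09, from -1.11 in members and -0.0015 in other fibroblasts). The histone gene Hist2h4 differed by 1.59, from 1.03 in members and -0.51 in other fibroblasts, and was not called without control_diet 1. Of these 11 genes, C3 and Stmn4 were also called between diets in members alone.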

How the results depend on the processing

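Members against other fibroblasts called 2260 genes, 1444 by DESeq2, 1327 under the stricter gate and 1094 without the library term, and 1713 to 2237 with 1 library left out. Of its 125 called genes that were followed, 85 kept call and direction in every alternative run; 2891 of 2982 values were unchanged in both, 88 lost the call and 3 turned round, all with members chosen without Postn: Wif1 -0.69, Pdgfa -0.18 and S100b -1.47. The diet comparison in members (19) gave 178 with no filter on low counts, 11 by DESeq2, 8 and 9 with the top 10% and 20% as members, 4 under the stricter gate, 30 without cells bearing Schwann or mesothelial markers and 1 to 234 with 1 library left out. Of 359 values of its 19 genes 241 kept the call and 118 lost it. In other fibroblasts (1) the count was 204 with no filter, 29 by DESeq2 and 5 to 107 with 1 library left out. The test of the difference (11) gave 39 with no filter, 3 by DESeq2, 4 with the top 10%, 3 within deciles of depth, 1 under the stricter gate, 19 with gate genes at 0.5% of UMIs or more, 20 without Schwann or mesothelial cells and 28 to 110 with 1 library left out; 119 of 176 values kept the call, 54 lost it, and Mgp (-0.064 within deciles, -0.076 under the stricter gate) and Mt1 (-0.21 under the stricter gate) turned round. The marker genes chose the members, so their diet changes within members are a description, and some changed sign between runs. Ltbp2 went to -0.077 at 10% mitochondrial UMIs or less, -0.099 without Schwann or mesothelial cells and -0.14 to 0.17 with 1 library left out. Postn went to -0.71 to 0.16 with 1 left out. Dio2 went to 0.086 under the stricter gate, 0.040 without shared barcodes and -0.58 to 0.019 with 1 left out. In all fibroblasts, with 1 library left out, Cilp ran -0.049 to 0.35, Postn -0.85 to 0.090, Ltbp2 -0.19 to 0.24 and Col8a1 -0.19 to 0.048, with 0 to 1 markers called. The causes of these changes were not tested.

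The repeat numbers are shared across diets, but the labels do not say what a number shares. Deviations of same-numbered libraries correlated at 0.145 in members, with only 2 pairs, so they were not taken as pairs. With the repeat number as a replicate block, 137 genes were called between diets in members, 4 in other fibroblasts and 0 of the markers in all fibroblasts. The limits are few libraries, 87 members in control_diet 2, and members that are the upper end of a continuous score.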

Other observations

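Stress and metabolic lists were read in members against other fibroblasts too, where 10.5% of all genes tested were called higher and 8.77% lower. Of 22 cholesterol synthesis genes 10 rose and 0 fell (median log2 change 0.36), with squalene epoxidase (Sqle) up by 0.92, the isomerase Idi1 by 0.66 and Hmgcs1 by 0.59; without control_diet 1, 5 were called, and Hmgcs1 (0.55) was not. Of 18 immediate early genes, which respond to cell dissociation among other stimuli, 3 rose (Ier3 by 1.11, Egr3 by 0.93 and Egr2 by 0.67) and 11 fell, such as Zfp36 by 0.65 and Dusp1 by 0.39; without high_fibre 2, 7 were lower. Of 14 glucocorticoid-responsive genes 2 rose and 8 fell, with 1 higher without high_fibre 1 or control_diet 2. Of 15 interferon-response genes 0 rose and 5 fell, Irf1 by 0.78, and 3 were lower without high_fibre 1 or control_diet 1. Of 12 inducible heat shock genes 0 rose and 2 fell, against 1 without high_fibre 2 and 4 without control_diet 2. Their median log2 change was 0.0029, with 6 above 0 and 6 below, so they had no common direction. Complement had 3 of 9 genes higher and 4 lower: C7 rose by 0.77, while the protease C1s1 fell by 1.01, C1ra by 0.73 and the inhibitor Serping1 by 0.48. Endoplasmic reticulum chaperones had 6 of 18 higher and 4 lower, with 3 higher without high_fibre 1, high_fibre 2 or control_diet 1, and 1 lower without control_diet 2. The chaperones had no common direction either, with a median of 0.023, 9 above 0 and 9 below.

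Erythroid markers summed to 935 CPM in the members of high_fibre 2, against 8.74 CPM in the lowest library. Of this, 920 Hba-a1 UMIs came from 1 member, and without it Hba-a1 in that library stood at 4.58 CPM. At least 3 UMIs of Wif1, Comp, Fmod, Chad and Scx together, a set chosen after their values were seen, were held by 98 members (10.1%) and 147 other fibroblasts (2.69%).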
